A study of Homo sapiens with 12 samples.

Results

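The genes described are 46 cancer-testis and germline genes, chosen by name from 59490 features whose name occurs once in the deposited tables. All 46 were found, 28 on the X chromosome and 18 on autosomes. They comprise 11 MAGE genes, 8 genes of the GAGE, XAGE and PAGE families, 8 other X-linked antigen genes, 5 genes of the piRNA pathway, 4 genes of the meiotic chromosome, and 10 further germ-cell genes. Expression was measured in OCI-LY1, an established human line of diffuse large B-cell lymphoma, germinal-centre type. Decitabine-treated OCI-LY1R cells (resistant decitabine) received 1 µM of the drug for 3 days, and OCI-LY1R cells given DMSO (resistant vehicle) were their control. Decitabine-treated parental cells (parental decitabine) had the same dose and time, with DMSO-treated parental cells (parental vehicle) as control. Each of these 4 groups held 3 libraries of polyadenylated RNA. OCI-LY1R is a single derivative of the parental line, selected with venetoclax, an inhibitor of the survival protein BCL2, at concentrations raised to 1 µM. Values are TPM, a transcript level per length that sums to 1000000 over each library. Sequencing depth is unknown, so no counting interval or floor is given, and a value of 0 is reported as listed at 0.

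Cancer-testis genes are normally active in male germ cells and kept silent in most other tissues. Their silence in somatic cells rests largely on methylation of CpG dinucleotides around their start sites, together with repressors of germline promoters such as the E2F6 and PCGF6 complex. Decitabine is a cytidine analogue that is built into DNA and traps DNA methyltransferases, and induction of cancer-testis genes is a known response of many tumour lines to it. Their products include antigens seen by T cells, proteins of the synaptonemal complex that joins paired chromosomes in meiosis, and factors of the piRNA pathway that silences transposons in the germ line.

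Because methylation of CpG bases near the start site is the known brake on these genes, the 250 bases before the start site are shown for the 4 genes with the most informative values. They are SYCP3 (chr12:101739463-101739712, minus strand), GTSF1 (chr12:54473603-54473852, minus strand), DAZL (chr3:16605424-16605673, minus strand) and MAGEA12 (chrX:152733507-152733756, plus strand), from RefSeq on GRCh38.p14. SYCP3 is the gene listed above 0 in every library, and GTSF1 has the highest level of all the members in any library. DAZL is a germ-cell regulator with a CpG-rich start, and MAGEA12 is the MAGE gene with the highest level by name. Each is written 5′ to 3′ with every CpG in capitals.
SYCP3: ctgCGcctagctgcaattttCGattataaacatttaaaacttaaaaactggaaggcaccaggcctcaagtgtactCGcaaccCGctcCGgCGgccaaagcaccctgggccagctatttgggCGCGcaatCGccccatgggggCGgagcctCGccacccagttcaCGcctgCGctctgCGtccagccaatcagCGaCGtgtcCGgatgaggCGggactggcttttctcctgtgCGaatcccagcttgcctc
GTSF1: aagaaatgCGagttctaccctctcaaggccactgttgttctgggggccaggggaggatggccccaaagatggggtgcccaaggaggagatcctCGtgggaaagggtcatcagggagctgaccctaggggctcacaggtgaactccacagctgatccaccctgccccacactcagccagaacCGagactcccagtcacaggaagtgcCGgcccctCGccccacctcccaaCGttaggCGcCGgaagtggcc
DAZL: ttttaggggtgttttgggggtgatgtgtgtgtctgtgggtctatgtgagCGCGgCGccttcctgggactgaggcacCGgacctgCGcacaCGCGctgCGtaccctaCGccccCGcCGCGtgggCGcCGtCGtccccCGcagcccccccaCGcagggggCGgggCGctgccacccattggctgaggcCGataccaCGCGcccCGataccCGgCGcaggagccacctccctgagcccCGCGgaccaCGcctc
MAGEA12: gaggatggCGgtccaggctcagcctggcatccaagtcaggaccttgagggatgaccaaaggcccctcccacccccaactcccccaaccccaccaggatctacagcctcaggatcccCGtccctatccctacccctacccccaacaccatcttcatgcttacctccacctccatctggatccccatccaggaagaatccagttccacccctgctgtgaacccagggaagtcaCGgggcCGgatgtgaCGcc

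These 250 bases held 28 CpG dinucleotides in DAZL, 19 in SYCP3, 8 in GTSF1 and 5 in MAGEA12. RefSeq start-site windows of 300 bases (250 before and 50 after the start) were found for 40 of the 46 genes, and the first listed window of a gene was used. Their CpG count ran from 1 to 60 with a median of 13, against a median of 14 and quartiles of 4 and 28 over all 35116 windows. The median was 12 for 24 X-linked genes and 20.5 for 16 autosomal genes. The windows were searched for 3 short motifs on both strands, none of which contains another. The core of the E2F6 site, TCCCGC, was found in the windows of 14 genes (35%), against 26.9% of all windows. The E-box CACGTG was found in 8 (20%), against 7.26% of all windows. All of these but BRDT and TDRD1 were GAGE, XAGE and PAGE genes (GAGE1, GAGE2A, PAGE1, PAGE2B, PAGE5 and XAGE3). As related genes they are not separate cases, so the higher share is not a trait of the members at large. The ETS core CCGGAA was found in 9 (22.5%), against 17.2% of all windows. In SYCP3 the E2F6 core lay on the opposite strand, as GCGGGA beginning 41 bases before the start, and in GTSF1 CCGGAA began 12 bases before the start. DAZL and MAGEA12 held none of the 3 motifs. Windows of MAGEA3 and MAGEA6 were identical in 300 of 300 bases. Each held 19 CpG and the ETS core, against 9 CpG in the window of MAGEA12, so MAGEA12 does not represent every MAGE start. Such matches describe letters in a window and were not tested for binding or methylation.

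One library, parental decitabine replicate 3, was unlike the other 11 and was kept out of the tests. Protein-coding features summed to 893973 TPM in replicate 3 and to 266063 to 321805 TPM in the others. CD79A, a subunit of the B-cell receptor, reached 1491 TPM in replicate 3, against 3.39 to 8.74 TPM elsewhere. MS4A1, the gene of the B-cell antigen CD20, reached 204 TPM in replicate 3, against 0 to 3.15 TPM elsewhere. All 11 B-cell markers were above 0 in replicate 3, against 7 to 9 of 11 in the other libraries. Several genes that define the cell type of the line are therefore listed low in these 11 libraries, though not CD37 (810.0 TPM in replicate 3, against 361 to 1908 TPM), and a germline gene listed at 0 there is not shown to be silent. Libraries of the other 3 groups hold none like replicate 3, so its values have no control measured in the same way. They are described below, and enter a fit only in the alternative that includes this library. Features of the class annotated as antisense, which lie opposite genes, summed to 2979 TPM in replicate 3 and to 349017 to 486972 TPM in the other 11. Replicate 3 and the 11 therefore differ in which strand's features carry the signal. The sources used here state a stranded library but no strand setting of the counting, so a value listed under a gene's name in the 11 libraries may not be that of the gene's own transcript. This holds for each comparison below, all of which rest on those 11 libraries.

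Across the 11 libraries the genes were nearly all listed at 0. Of 506 values 22 were above 0, and 11 of those were from SYCP3. Members above 0 numbered 3, 1 and 1 in resistant decitabine libraries a, b and c, against 2 in each resistant vehicle library. They numbered 4 and 3 in parental decitabine replicates 1 and 2, against 1, 1 and 2 in parental vehicle replicates 1, 2 and 3. Decitabine libraries thus overlapped vehicle libraries in resistant cells and lay above them by 1 to 3 genes in parental cells. The share above 0 of 19473 protein-coding genes was likewise higher with the drug. It was 35.7% to 36.7% in resistant decitabine, against 28.1% to 29% in resistant vehicle, and 32.2% to 33.3% in parental decitabine replicates 1 and 2, against 29.1% to 30% in parental vehicle. For the members the share was 2.17% to 8.7% over the same libraries. In 40 of the 46 genes every one of the 11 values was 0, and 12 genes were at 0 in replicate 3 too. None of the 28 X-linked genes was above 0 in any of the 11 libraries.

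In replicate 3, 32 of the 46 genes were above 0 (69.6%), close to the 72.2% of protein-coding genes above 0 there. Members of at least 1 TPM numbered 21 (45.7%, against 55.6% of protein-coding genes), those of at least 5 TPM 9, and those of at least 10 TPM 6. The median of the members above 0 was 1.44 TPM, against 9.72 TPM for protein-coding genes above 0. Of the 40 genes at 0 in all 11 other libraries, 28 were above 0 in replicate 3 (70%), against 3659 of 7688 protein-coding genes at 0 in those 11 (47.6%). At 1 TPM or more in replicate 3 were 18 of these 40 genes (45%), against 2090 of those 7688 (27.2%). Most of the 40 genes were therefore listed in replicate 3, while the median of all members above 0 lay below that of protein-coding genes above 0. Markers of other cell types summed to 43.2 TPM in replicate 3 and to 0 to 12.8 TPM in the others. In replicate 3, 9 of these 13 markers were above 0, led by EPCAM at 33.4 TPM, while CD3D, LYZ, CSF1R and HBB were at 0. Their part in the germline values was not tested.

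**Figure D1:**
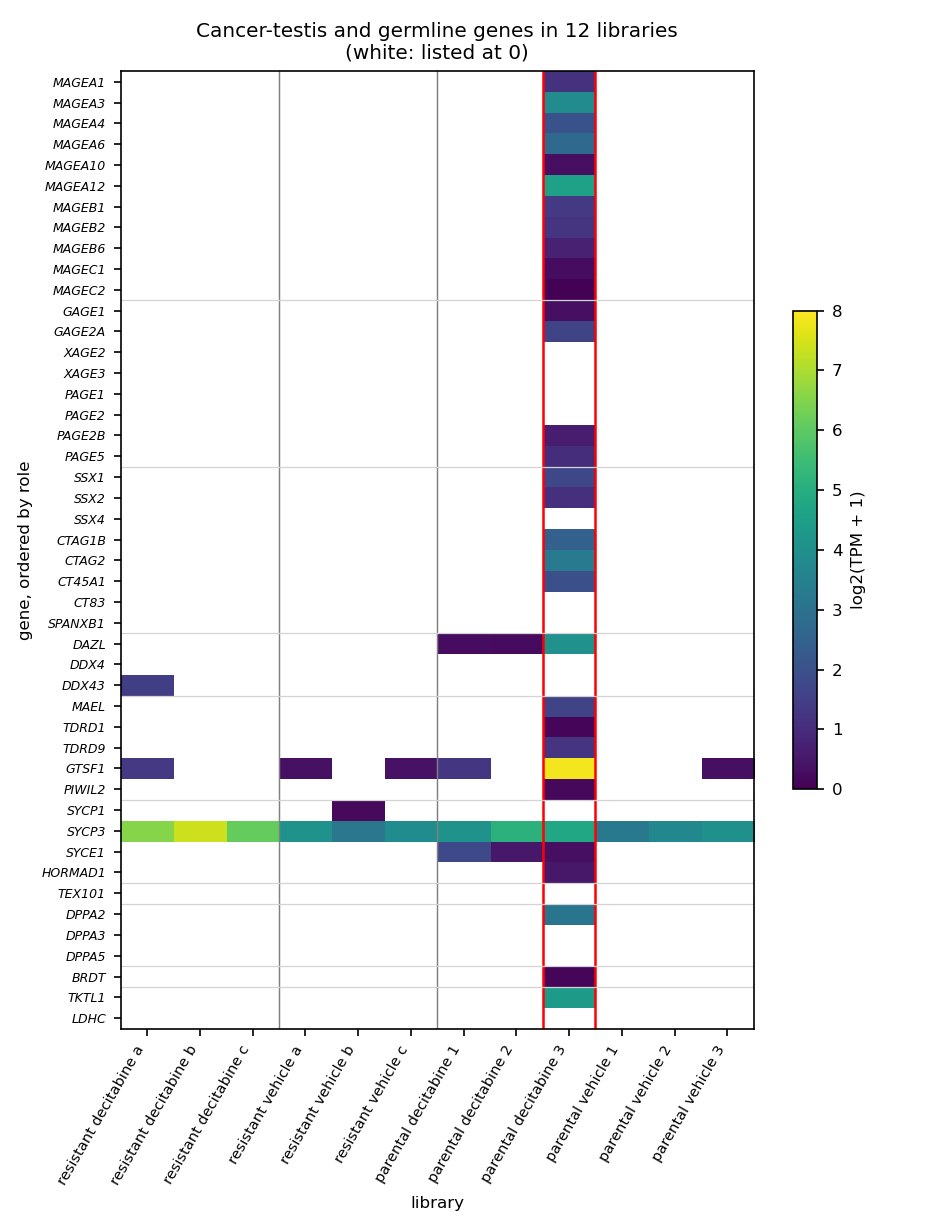
Level of each of the 46 genes (rows, ordered by role) in each of the 12 libraries (columns), as log2(TPM + 1) by colour, with white for a gene listed at 0 and red lines around parental decitabine replicate 3. Replicate 3 has 32 genes above 0 and every other library 1 to 4, with SYCP3 the row filled in all 12.

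All 11 MAGE genes, matched by name, were above 0 in replicate 3 and at 0 in the other 11 libraries. None of the identifiers listed beside these 11 names belongs to the name, and by identifier 6 of the 11 are above 0, with MAGEA12 at 0, so the levels and their order rest on the names. MAGE proteins bind ubiquitin ligases and steer what these modify. MAGEA12 was highest at 22.8 TPM, followed by MAGEA3 at 13.5, MAGEA6 at 5.62 and MAGEA4 at 3.06 TPM. MAGEB1 was at 1.55, MAGEB2 at 1.33 and MAGEA1 at 1.26 TPM, and MAGEB6, MAGEA10, MAGEC1 and MAGEC2 lay below 1 TPM, down to 0.0244 TPM for MAGEC2. The A subfamily therefore held the 4 highest levels and the C subfamily the 2 lowest. MAGEA3 and MAGEA6 share much of their sequence. Of the distinct stretches of 50 bases in MAGEA3 transcripts 56.5% also occur in another gene, and of those in MAGEA6 53.9%, so the split of reads between the pair is uncertain. MAGEA12 shared 13.8% and MAGEA1 0.662%.

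Matched by name, the other X-linked antigen genes had lower sums. Of the 8 GAGE, XAGE and PAGE genes, whose products are small acidic proteins of unclear function, 4 were above 0 in replicate 3. GAGE2A was at 2.09 TPM, PAGE5 at 1.07, PAGE2B at 0.522 and GAGE1 at 0.253 TPM, and XAGE2, XAGE3, PAGE1 and PAGE2 were at 0. Their sum was 3.93 TPM and that of the remaining 8 X-linked antigen genes 19.9 TPM, against 50.2 TPM for the MAGE genes. The identifiers listed beside the XAGE, PAGE, SSX and SPANXB1 names do not belong to those names. By identifier PAGE5 was at 25.1 TPM, SSX1 at 1.1, SSX2 at 0.89 and PAGE2 at 0.522 TPM in replicate 3. These sums and their order therefore rest on the names. CTAG2, the gene of the antigen LAGE-1, was at 9.09 TPM, and CTAG1B, the gene of the T-cell antigen NY-ESO-1, at 4.51 TPM. CT45A1 was at 2.86 TPM, SSX1, a transcriptional repressor gene that takes part in the fusions of synovial sarcoma, at 2.36 TPM, and its relative SSX2 at 1.1 TPM. SSX4, CT83 and SPANXB1, the last a gene of a sperm nuclear protein, were at 0. Near-identical copies limit these values. In SSX2 and SSX4 all of the 50-base stretches occur in another gene, in CTAG1B 89.9%, in GAGE2A 85.2%, in CT45A1 83.7% and in PAGE2B 52.3%.

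The piRNA-pathway genes were led by GTSF1 (chromosome 12, 54455950 to 54473602, minus strand, GRCh38), which encodes a zinc-finger cofactor of PIWI proteins. It was listed at 229 TPM in parental decitabine replicate 3, rank 390 among protein-coding genes, and made up 60.8% of the members' summed 377 TPM there. In resistant decitabine libraries a, b and c GTSF1 was at 1.53, 0 and 0 TPM, against 0.292, 0 and 0.322 TPM in resistant vehicle. In parental decitabine replicates 1 and 2 it was at 1.38 and 0 TPM, against 0, 0 and 0.268 TPM in parental vehicle. The groups overlapped in both lines, and no library outside replicate 3 exceeded 1.53 TPM. None of the 50-base stretches of GTSF1 occurs in another gene, and no annotated exon overlaps it on the opposite strand. The other 4 piRNA genes were much lower by name in replicate 3 and at 0 elsewhere. The identifiers listed beside these 4 names do not belong to them. By identifier MAEL, TDRD9 and PIWIL2 were at 0 TPM in replicate 3 and TDRD1 at 0.132 TPM. By name the levels were as follows. MAEL, a factor of piRNA-guided transposon silencing, was at 2.12 TPM, and TDRD9, a tudor-domain helicase, at 1.33 TPM. PIWIL2, which encodes the PIWI protein that binds the small RNAs, was at 0.115 TPM and TDRD1, a tudor-domain scaffold, at 0.09 TPM. GTSF1 was thus high in a library where PIWIL2 was near 0.

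Among germ-cell RNA-binding proteins and helicases, DAZL, which promotes the translation of germ-cell messenger RNAs, was at 15.6 TPM in replicate 3. It was at 0.2 and 0.177 TPM in parental decitabine replicates 1 and 2, against 0 in all 3 parental vehicle libraries, and at 0 in the 6 resistant libraries. Replicates 1 and 2 thus differed from vehicle by no more than 0.2 TPM, and DAZL was too low to be tested without replicate 3. DDX43, an RNA helicase gene, was at 1.79 TPM in resistant decitabine a and at 0 in the other 11 libraries. DDX4, the Vasa helicase that marks germ cells, was at 0 in all 12. DPPA2, a chromatin factor of pluripotent cells, was at 7.65 TPM in replicate 3 and 0 elsewhere, while DPPA3 and DPPA5 were at 0 in all 12. TKTL1, a transketolase-like gene, was at 19.5 TPM by name in replicate 3 and at 0 elsewhere. The identifier listed beside TKTL1 does not belong to that name. LDHC, the lactate dehydrogenase of sperm, and TEX101, a germ-cell surface glycoprotein gene, were at 0 in all 12, and BRDT, the bromodomain gene of the testis, was at 0.114 TPM in replicate 3 only. Antigen genes and germ-cell regulators alike held genes above 10 TPM and genes at 0 in replicate 3.

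**Figure D2:**
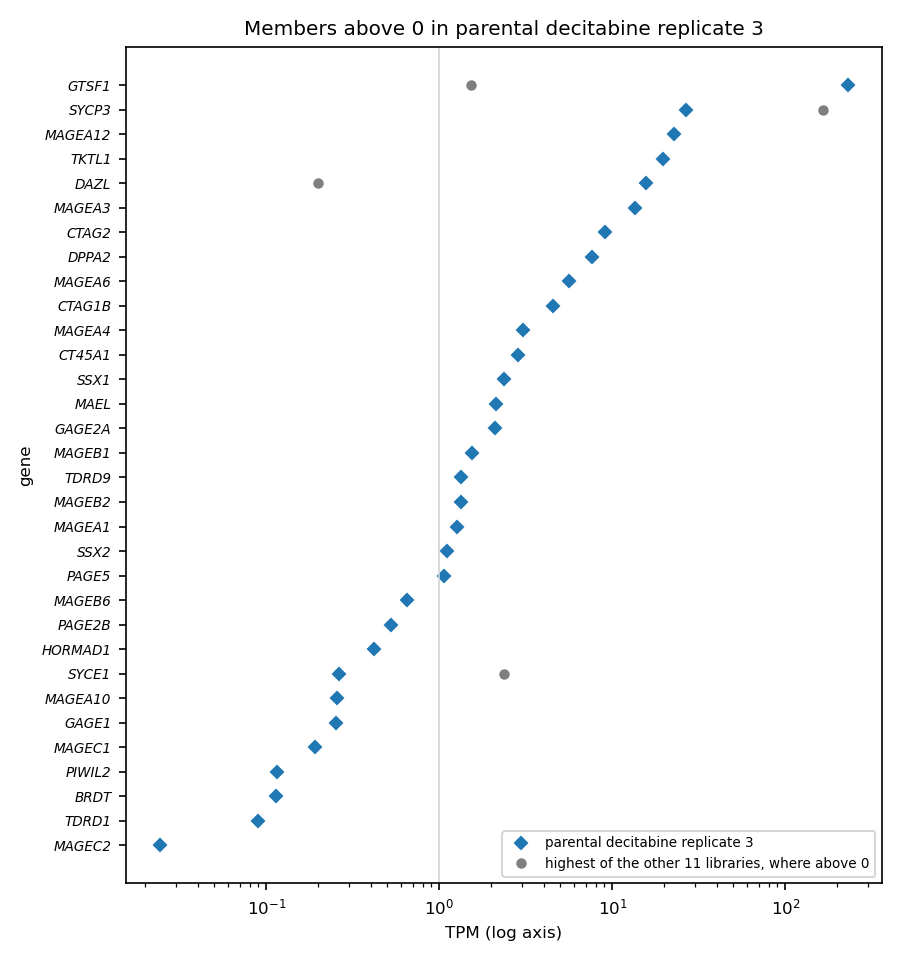
TPM on a log axis of the 32 genes above 0 in parental decitabine replicate 3 (blue diamonds), with the highest of the other 11 libraries (grey circles) for the 4 of them above 0 there. GTSF1 stands at 229 TPM and the next gene, SYCP3, at 26.5 TPM; only SYCP3 and SYCE1 have a higher value in another library.

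SYCP3 was the exception among the members. It encodes the protein of the lateral elements, the chromosome axes of the synaptonemal complex, and lies on chromosome 12, 101728648 to 101739472, minus strand. SYCP3 was listed at 91.5, 166 and 68.3 TPM in resistant decitabine a, b and c, against 16.2, 7.94 and 13.7 TPM in resistant vehicle. Every resistant decitabine library lay above every vehicle library, and the highest of them was resistant decitabine b. The means were 109 ± 51.3 TPM and 12.6 ± 4.23 TPM (SD, n = 3 each), a ratio of 8.63. In parental decitabine replicates 1 and 2 SYCP3 was at 16.4 and 34.3 TPM, against 8.32, 12.4 and 15.1 TPM in parental vehicle, a ratio of means of 2.13. The parental groups did not overlap either, but replicate 1 exceeded the highest vehicle library by little. Replicate 3 was listed by name at 26.5 TPM, a number between those of replicates 1 and 2. It differs from them in which strand's features carry the signal, so these values are not a like measure. The identifier listed beside SYCP3 does not belong to that name. By identifier SYCP3 was at 0 TPM in replicate 3, which is not taken as a level, given the ribosomal protein genes above. The transcripts of SYCP3 share 0.341% of their 50-base stretches with another gene.

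Tests were by limma on log2(TPM + 1), with Benjamini-Hochberg adjustment over every feature averaging 1 TPM or more. SYCP3 was listed higher with decitabine in resistant cells, though this value may not be that of its own transcript. The log2 fold change was 2.96 (SE 0.41, adjusted p = 0.0271), and 2.75 after subtracting the median of all features. SYCP3 was the only member to reach the filter, so 1 of 1 tested members was called and 45 were not tested, beside 2.83% of 8579 features called as higher. Higher without overlap, as SYCP3 was, were 19.8% of the features tested. The call was lost with no filter (adjusted p = 0.0576) and without resistant decitabine a (0.0858), b (0.0573) or c (0.0542) or resistant vehicle b (0.0667) or c (0.0812), with a log2 fold change of 2.61 to 3.25 in all of these. The labels do not say whether replicates were separate cultures, so these p-values measure the spread between libraries, which may be technical. More cells with the transcript and more transcript per cell cannot be told apart in these bulk samples. Markers of other cell types summed to 12.8, 8.33 and 0.158 TPM in resistant decitabine a, b and c, against 0, 1.48 and 0 TPM in resistant vehicle. Of these sums VIM alone held 11.2, 7.31 and 0 TPM in resistant decitabine, against 0, 1.02 and 0 TPM in resistant vehicle. The part of these markers in the result was not tested.

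In parental cells the log2 fold change of SYCP3 was 0.98 (SE 0.42, limma adjusted p = 0.317), which did not pass, beside 1.86% of 8122 features called in either direction. It was 0.77 above the median of all features, and 27.9% of the features tested were likewise higher without overlap. With line as a covariate SYCP3 was listed higher with decitabine over both lines (log2 fold change 2.08, SE 0.43, limma adjusted p = 0.0155), beside 7.92% of 8505 features called as higher. That call held without each library in turn (limma adjusted p 0.00723 to 0.04) and was lost with parental replicate 3 included (log2 fold change 2, limma adjusted p = 0.152). The response was larger in resistant than in parental cells by 1.99 on the log2 scale (SE 0.63), a difference that did not pass (limma adjusted p = 0.307), beside 0.364% of 8505 features called. Under vehicle alone, resistant cells had 12.6 ± 4.23 TPM and parental cells 11.9 ± 3.4 TPM (SD, n = 3 each). That log2 difference of 0.06 (SE 0.35, limma adjusted p = 0.959) did not pass, beside 2.8% of 7761 features called. It shares its vehicle libraries with the 2 responses.

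CHPT1, a gene of phosphatidylcholine synthesis, lies opposite SYCP3, and 566 of the 3829 exon bases of SYCP3 (14.8%) overlap its exons. CHPT1 was listed at 18.2, 17.1 and 18.6 TPM in resistant decitabine, against 0 in all 3 resistant vehicle libraries. It reached the filter there only through the decitabine libraries, so no test is given for the resistant line. In parental decitabine replicates 1 and 2 it was at 19.6 and 12.3 TPM, against 1.82, 12 and 0 TPM in parental vehicle (limma adjusted p = 0.372), with 26 TPM in replicate 3. Over both lines CHPT1 was listed higher with decitabine by 3.39 on the log2 scale (SE 0.61, limma adjusted p = 0.00882). This call was kept in every alternative in which it was fitted. Without a stated strand setting, reads from the shared exon bases cannot be assigned to either gene. In the 11 libraries the values listed under SYCP3 and CHPT1 may thus not be those of each gene's own transcript. The part of CHPT1 in the SYCP3 values was not tested.

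**Figure D3:**
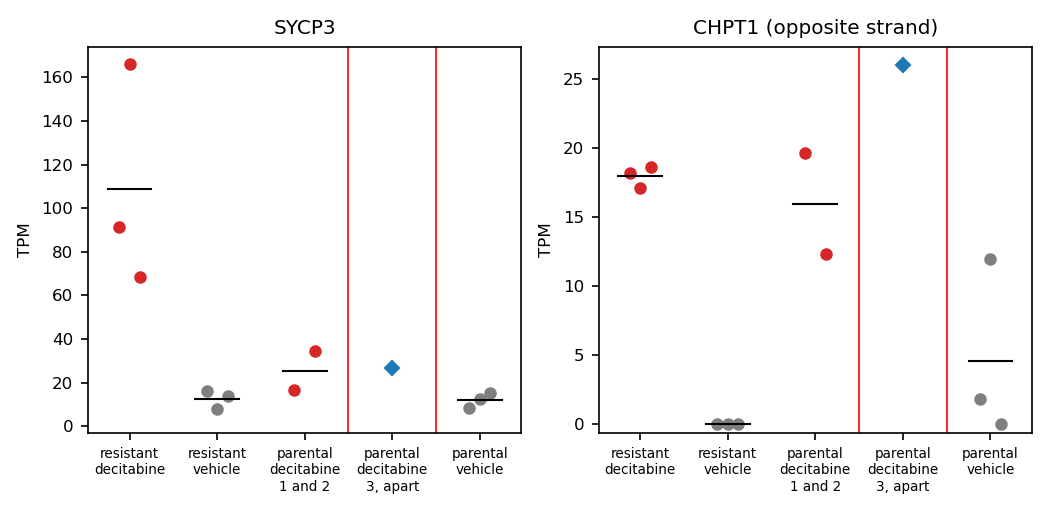
TPM of SYCP3 (left) and of CHPT1 on the opposite strand (right) in each library (points) with group means (lines), and parental decitabine replicate 3 apart between red lines. Resistant decitabine libraries lie at 68.3 to 166 TPM for SYCP3, against 7.94 to 16.2 TPM in resistant vehicle, and at 17.1 to 18.6 TPM for CHPT1, against 0.

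The members SYCE1, SYCP1 and HORMAD1, also of the synaptonemal complex and chromosome axis, were too low to be tested. SYCE1, a central-element gene, was at 2.37 and 0.421 TPM in parental decitabine replicates 1 and 2, against 0 in all 3 parental vehicle libraries, and at 0 in all 6 resistant libraries. Its level in replicate 3 was 0.263 TPM by name, and the identifier listed beside SYCE1 does not belong to that name. Of its exon bases 53.3% lie opposite CYP2E1, a cytochrome P450 gene. CYP2E1 was listed at 4.63, 3.8 and 2.98 TPM in resistant decitabine, against 0 in resistant vehicle, and at 1.07 and 1.34 TPM in parental decitabine replicates 1 and 2, against 0 in parental vehicle. SYCE1 was therefore above 0 in parental and not in resistant decitabine libraries, whereas CYP2E1 was above 0 in both. CYP2E1 reached the filter only through decitabine libraries, so no test is given for it. SYCP1, the gene of the transverse filaments, was at 0.157 TPM in resistant vehicle b and at 0 in the other 11 libraries, and HORMAD1, an axis gene, was at 0.417 TPM in replicate 3 only. TKTL1, at 0 in all 11, lies opposite TEX28, a testis-expressed gene. TEX28 was at 0, 0 and 4.72 TPM in resistant decitabine and 2.89 and 5.03 TPM in parental decitabine replicates 1 and 2, against 0 in all vehicle libraries, and it too reached the filter only through decitabine libraries. Exons of 41 of the 46 genes have no annotated overlap on the opposite strand.

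Of 40 further meiosis genes 37 were in the tables, and few were high enough to test. In resistant cells 5 were tested, of which 1 rose and 1 fell, with a median log2 fold change of 0.1 against 0.21 for all features. For the parental line 6 were tested and 0 called (2 with an unadjusted p under 0.05), with a median of 0.3 against 0.21. Over both lines 6 were tested and 2 called, STAG3 as higher and HFM1 as lower. Of all features, 0.758% were called as lower in resistant cells and 2.43% over both lines. STAG3, the meiotic subunit of cohesin, was listed higher with decitabine in resistant cells and over both lines. It was at 101, 88.7 and 109 TPM in resistant decitabine, against 47.7, 56.1 and 40.8 TPM in resistant vehicle (log2 fold change 1.04, SE 0.17, limma adjusted p = 0.039). In parental decitabine replicates 1 and 2 STAG3 was at 105 and 94.4 TPM, against 57.4, 60.8 and 55.1 TPM in parental vehicle (log2 fold change 0.78, SE 0.12, limma adjusted p = 0.0639). The groups did not overlap in either line, and the change over both was 0.92 (SE 0.12, limma adjusted p = 0.00142). Parental decitabine replicate 3 was at 15.6 TPM, below every other library, and with it included the call over both lines was lost (0.581). The resistant call was lost without resistant decitabine a, b or c (0.112, 0.0798 and 0.105) or resistant vehicle a, b or c (0.0876, 0.0607 and 0.105), and with no filter (0.0993). Of the exon bases of STAG3 13.6% lie opposite CASTOR3.

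MEIOC, which with YTHDC2 sustains meiotic prophase, was listed lower with decitabine in resistant cells. It was at 99.6, 117 and 115 TPM in resistant decitabine, against 183, 168 and 174 TPM in resistant vehicle (log2 fold change -0.66, SE 0.12, limma adjusted p = 0.0494). In parental decitabine replicates 1 and 2 it was at 134 and 105 TPM, against 104, 103 and 116 TPM in parental vehicle (log2 fold change 0.14, limma adjusted p = 0.646). In replicate 3 MEIOC was at 0.184 TPM, and with it included the parental log2 fold change was -2.08 (limma adjusted p = 0.594). Without it the difference of the responses was -0.80 (SE 0.19, limma adjusted p = 0.153) and did not pass. Under vehicle MEIOC was higher in resistant cells by 0.69 (SE 0.10, limma adjusted p = 0.0354). This difference and the lower level with the drug share the resistant vehicle libraries, so they are not separate observations. Both calls were lost when any 1 library was left out, with adjusted p of 0.0972 to 0.138 for the drug and 0.0627 to 0.126 between the lines. They were also lost with quantile scaling (0.0637 for the drug, 0.079 between the lines) and no filter (0.146 and 0.0868), and that between the lines with median-ratio scaling (0.0595). Resistant decitabine libraries thus lay near the parental vehicle level, against a higher resistant vehicle level. Of the exon bases of MEIOC 21.2% lie opposite AC091152.2 and 6.23% opposite CCDC43, and their part in the MEIOC values was not tested. MEIOC was listed at 99.6 to 183 TPM in the 11 libraries, against 0.184 TPM in replicate 3. The values in the 11 may therefore not be those of its own transcript. HFM1, a helicase gene of meiotic crossover formation, was at 0 in all 6 decitabine libraries. It was at 2.54, 0.55 and 0.68 TPM in resistant vehicle and 2.01, 2.44 and 3.18 TPM in parental vehicle. HFM1 reached the filter only through the vehicle libraries, so it had to differ to be tested, and its call over both lines is given as a count only.

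**Figure D4:**
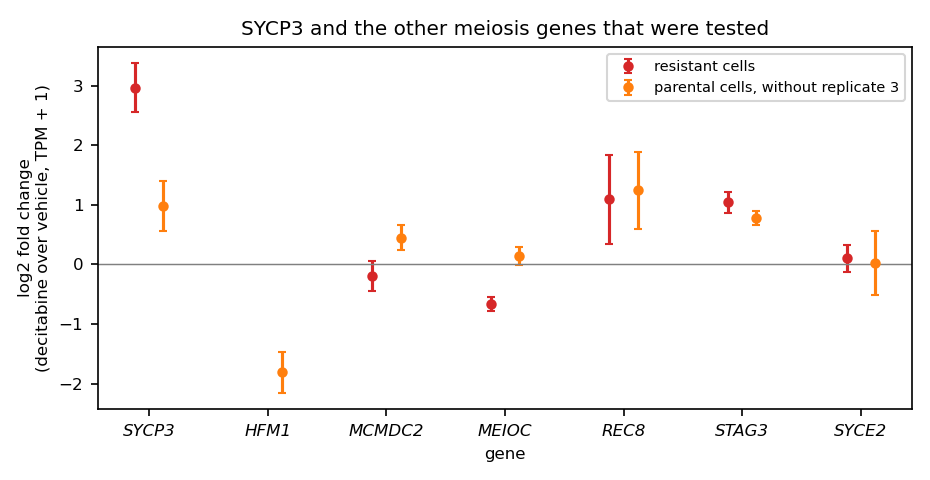
Log2 fold change of decitabine over vehicle with its standard error (bars) for SYCP3 and the 6 further meiosis genes tested, in resistant cells (red) and in parental cells without replicate 3 (orange). SYCP3 is at 2.96 in resistant and 0.98 in parental cells, STAG3 at 1.04 and 0.78, and MEIOC at -0.66 and 0.14; HFM1 was not tested in resistant cells.

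Other germline lists gave 0 calls by limma. Of 55 further X-linked cancer-testis genes in the tables, 0 were tested in resistant cells and 1, TEX28, in parental cells. Of 25 further piRNA-pathway genes 4 were tested in resistant and 5 in parental cells, with median log2 fold changes of 0.39 in each, and 0 at an unadjusted p under 0.05 in either. Of 37 further germ-cell regulators 3 were tested in each line, and 1 in resistant cells had an unadjusted p under 0.05. That gene was CTCFL, the germline paralogue of the insulator protein CTCF. It was at 11.1, 9.16 and 7.76 TPM in resistant decitabine, against 5.42, 3.1 and 1.5 TPM in resistant vehicle (log2 fold change 1.34, SE 0.41, limma adjusted p = 0.148). In parental decitabine replicates 1 and 2 it was at 9.97 and 9.54 TPM, against 6.15, 10.6 and 6.06 TPM in parental vehicle, with 0.845 TPM in replicate 3. In replicate 3 the X-linked list had 26 of 55 genes above 0 (47.3%, against 72.2% of protein-coding genes), led by CSAG1 at 59.5 TPM. PRAME, a cancer-testis antigen, was at 26 TPM there, CCNB1IP1, a regulator of meiotic crossovers, at 24.3 TPM, and DPPA4, the partner of DPPA2, at 24 TPM. All 4 were at 0 in the other 11 libraries, as were most members. The genes that silence the germline programme were listed in full in replicate 3, with 27 of 27 at 1 TPM or more, against 6 to 10 of 27 in the others. Protein-coding genes at 1 TPM or more were likewise more frequent in replicate 3, at 55.6% against 19.6% to 24.3%, so a rise there is not particular to this list. DNMT1, the maintenance DNA methyltransferase, was at 221 TPM and UHRF1, its cofactor, at 70.8 TPM in replicate 3. In the 11 libraries 0 of this list were called with decitabine among 9 tested in resistant and 10 in parental cells (1 in each with an unadjusted p under 0.05), with medians of 0.6 and 0.54 against 0.21 for all features.

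With replicate 3 included in the parental fit, 8 of the 46 genes reached the filter. By limma 0 of the 8 passed, and 0 of all 13778 features did. SYCP3 had a log2 fold change of 1.03 (SE 0.70, limma adjusted p = 0.594). The other 7, GTSF1, DAZL, MAGEA12, TKTL1, MAGEA3, CTAG2 and DPPA2, reached the filter only through replicate 3 and were at 1.38 TPM or less in the other libraries of the fit, so no fold or test is given for them.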

How the data were processed

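The data are 12 libraries of polyadenylated RNA, 3 to each of 4 groups. Stranded mRNA libraries were made for DNBSEQ, per the labels' protocols. HISAT2, StringTie and DESeq2 with build hg38 are named in the submitters' processing notes; of their versions, their order and the strand setting, nothing is given in the sources used here. No unit stands in the deposited tables, 1 for each line; the authors' values sum to 1000000 in every library and were taken as TPM. TPM keep no depth, so the test for normalised values was used in place of a count test.

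Genes were matched by name, because only 16 of the 46 identifiers listed beside the members in the parental table belong to their names, and the resistant table has none. In replicate 3 the median of 77 cytosolic ribosomal protein genes was 1006 TPM by name and 0.000392 TPM by identifier. The 1166 features with repeated names were left out. Columns of the resistant table could be matched to a group only and are lettered. Positions, classes and overlaps come from GENCODE 29 (GRCh38), start-site windows from RefSeq (GRCh38.p14).

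Comparisons used limma 3.58.1 (trend) under R 4.3.3, applied to log2(TPM + 1) of every feature that averaged 1 TPM or more across the libraries fitted; calls had a Benjamini-Hochberg adjusted p under 0.05. Fold changes on this scale understate the change of low genes. No fold is printed in the text where every library on one side of a comparison is at 0. There were 5 comparisons: the drug's effect in each line, its effect over both lines, the lines under vehicle, and the difference between the 2 drug effects. Parental decitabine replicate 3 was left out of the fits and included as an alternative. The other alternatives were quantile and median-ratio scaling, no filter, a filter at 5 TPM, a pseudocount of 0.1, a replicate block, and each library left out. Exon bases shared with the opposite strand and transcript stretches of 50 bases shared with other genes were counted.

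The members and the gene lists were chosen with earlier results of these data known. Values are given for every library for members averaging at least 1 TPM in a group or reaching 5 TPM in a library, for up to 4 tested genes of a list by smallest p, and for genes on a member's opposite strand. CSAG1, PRAME, CCNB1IP1 and DPPA4 were chosen after their values were seen. Whether parental replicate numbers pair the libraries was checked by correlation of deviations from group means, which lay between -0.012 and 0.012. With decitabine replicate 3 left out, the deviations of replicates 1 and 2 mirror each other, so the check cannot exclude pairing. The numbers were not taken as pairs in the main fits, and a replicate block was run as an alternative in parental cells.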

Additional observations from a re-analysis of the deposited data

Results flagged for a closer look

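Parental decitabine replicate 3, the library outside the tests, had 32 of the 46 genes above 0, against 1 to 2 in the vehicle libraries of the 2 lines and 1 to 4 in the other decitabine libraries. It stood out because these genes appear in a library that no comparison uses. The summed level was 377 TPM in replicate 3, 8.1 to 166 TPM in the others. Without SYCP3 it was 351 TPM in replicate 3, and 0 to 3.95 TPM in the others. The same library had 72.2% of all protein-coding genes above 0, so the share of these genes above 0 there, 69.6%, is near that of other genes, and no vehicle library like it was analysed here.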

How the results depend on the processing

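SYCP3 kept a positive log2 fold change for decitabine in resistant cells (2.61 to 3.25), in parental cells (0.47 to 1.48) and over both lines (1.79 to 2.47) in all alternatives run, and no result reversed a called direction. With no filter the members called in resistant cells came to 0 in place of 1, with more features sharing the adjustment, and so they did over both lines with replicate 3 included; leaving out 1 library gave 0 to 1 in resistant cells. Features called with no filter were 73 in place of 308 in resistant cells, 35 in place of 151 in parental cells, 475 in place of 881 over both lines, 68 in place of 217 between lines under vehicle and 7 in place of 31 for the difference. In resistant cells quantile scaling gave 196 and a mean of at least 5 TPM 194. With replicate 3 included 0 were called in parental cells, 25 over both lines and 1 for the difference; the cause was not tested. Leaving out 1 library gave 90 to 197 calls in resistant cells, 14 to 264 in parental cells, 573 to 730 over both lines, 58 to 191 between lines and 12 to 47 for the difference. The replicate block gave 0 calls in parental cells, with SYCP3 at 1.15 (limma adjusted p = 0.389); in resistant cells the block was not run, since those columns carry no sample of their own.

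Calls in the higher direction made up 78.9% of those in resistant cells as deposited, 66.8% with quantile and 63.5% with median-ratio scaling. In parental cells these shares were 74.2%, 61.5% and 53.9%, over both lines 76.5%, 50% and 55%, and between lines 61.8%, 46.7% and 46.7%. Over all features the median response in resistant cells, as log2 fold change, was 0.21 as deposited and -0.06 with quantile scaling.

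At 5 TPM or more in place of above 0, the members numbered 9 in replicate 3 and 1 on average in resistant vehicle (in place of 2) and in parental decitabine (in place of 3.5). With replicate 3 counted in its group, members of at least 1 TPM averaged 8.33 in place of 2 in parental decitabine, and their sum 144 in place of 27.6 TPM. Matched by identifier, an alternative added after the data were seen, 24 members were above 0 in replicate 3. SYCP3 and MAGEA12 were then at 0 there (26.5 and 22.8 TPM by name), TKTL1 at 0.0334 (19.5), SYCE1 at 15.8 (0.263) and PAGE5 at 25.1 TPM (1.07). GTSF1 and DAZL, whose identifiers belong to their names, kept their values. Where an identifier does not belong, the value by identifier is not taken as a level, given the ribosomal protein genes above. Depth is unknown, so how far it limits the low values could not be measured.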
